A study of Mus musculus with 8 samples.

Results

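The non-clustered delta protocadherins examined here were Pcdh1, Pcdh7, Pcdh8, Pcdh9, Pcdh10, Pcdh17, Pcdh18 and Pcdh20, and the question was how H3K27me3 at these genes compared between neural stem cells (NSCs) with WT Smchd1 and NSCs homozygous for its MommeD43 variant. A region counted as a member if it overlapped the gene body, in the GENCODE mouse annotation on GRCm38, with 5 kb added on each side. This gave 8 regions of 13585 in the table, exactly 1 for each of the 8 genes. For comparison, 6 regions lay inside the clustered protocadherin locus, 18:36930184-37841873, which runs from the outermost Pcdha gene to the outermost Pcdhg gene.

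The series has 8 samples. H3K27me3 chromatin immunoprecipitation followed by sequencing (ChIP-seq) was done on 3 cell lines labelled Smchd1GFP+/+ and on 3 labelled Smchd1GFPMommeD43/MommeD43, and 1 line of each genotype also gave a whole cell extract without antibody. All lines were female, of strain C57BL/6J, carried Smchd1 fused to GFP, came from the cortex of E14.5 embryos and were kept below 10 passages. The deposited table gives 1 pooled log2 value per genotype and region, so no value below has an SD, no genotype difference has a replicate check and no p-value is given. MommeD43 is a missense variant of SMCHD1, a chromatin protein with roles in X inactivation and in silencing of Hox and clustered protocadherin genes. The labels describe digestion with micrococcal nuclease and the study's methods describe shearing, and which of these lies behind the values was not settled here.

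Protocadherins are the largest group of the cadherin superfamily, cell surface proteins whose extracellular cadherin repeats bind the same protein on a neighbouring cell. Those of the Pcdha, Pcdhb and Pcdhg clusters sit side by side on a single chromosome and are chosen from alternative promoters in each neuron, whereas the delta protocadherins are scattered, each with its own promoter, and are divided by their cytoplasmic tails into delta-1 (Pcdh1, Pcdh7 and Pcdh9 here) and delta-2 (Pcdh8, Pcdh10, Pcdh17 and Pcdh18), with Pcdh20 placed apart. They guide axon growth, cell sorting and synapse formation in the developing brain. H3K27me3 is laid down by Polycomb repressive complex 2, typically over CpG-rich starts of developmental genes that are silent in the cell at hand.

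H3K27me3 is known for CpG-rich starts, and 7 of the 8 regions held the start of their gene, so the sequence just upstream of the starts is shown first. The 250 bases before the RefSeq start (GRCm38.p6) are shown on the strand of the gene for the genes with the lowest differences (Pcdh10 and Pcdh17), a gene with a higher value in MommeD43 (Pcdh8), the gene of this group with the fewest CpG sites (Pcdh20), and the gene whose start lay in no region (Pcdh9). Capitals mark CpG sites.
Pcdh10, chr3:45378148-45378397, plus strand: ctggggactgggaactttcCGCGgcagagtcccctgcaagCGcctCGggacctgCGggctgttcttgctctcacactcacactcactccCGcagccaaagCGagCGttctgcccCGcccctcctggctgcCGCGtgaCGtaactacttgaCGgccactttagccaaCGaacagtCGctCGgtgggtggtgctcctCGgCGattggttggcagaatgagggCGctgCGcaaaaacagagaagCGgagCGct
Pcdh17, chr14:84443313-84443562, plus strand: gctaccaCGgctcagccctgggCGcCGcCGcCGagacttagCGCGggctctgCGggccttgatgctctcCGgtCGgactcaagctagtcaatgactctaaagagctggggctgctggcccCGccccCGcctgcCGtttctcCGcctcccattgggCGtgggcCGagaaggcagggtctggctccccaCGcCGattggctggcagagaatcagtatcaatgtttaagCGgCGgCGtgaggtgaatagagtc
Pcdh8, chr14:79771313-79771562, minus strand: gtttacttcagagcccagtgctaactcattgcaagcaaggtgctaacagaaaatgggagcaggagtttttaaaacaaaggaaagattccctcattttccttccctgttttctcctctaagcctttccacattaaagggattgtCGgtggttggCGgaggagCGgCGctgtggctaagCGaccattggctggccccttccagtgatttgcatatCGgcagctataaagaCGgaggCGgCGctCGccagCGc
Pcdh20, chr14:88471397-88471646, minus strand: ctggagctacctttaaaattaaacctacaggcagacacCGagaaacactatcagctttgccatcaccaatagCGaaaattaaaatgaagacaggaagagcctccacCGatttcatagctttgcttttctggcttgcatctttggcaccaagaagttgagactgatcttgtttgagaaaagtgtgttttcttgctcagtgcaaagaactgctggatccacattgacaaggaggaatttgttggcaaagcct
Pcdh9, chr14:93890680-93890929, minus strand: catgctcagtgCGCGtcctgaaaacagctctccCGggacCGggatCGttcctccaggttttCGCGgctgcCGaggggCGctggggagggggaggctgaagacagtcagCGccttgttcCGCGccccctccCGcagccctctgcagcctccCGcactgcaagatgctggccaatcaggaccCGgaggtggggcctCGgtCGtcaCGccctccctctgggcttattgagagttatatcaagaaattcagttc

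The table of promoters held 7 of the 8 genes. Pcdh18 had 23 CpG sites in this window, Pcdh10 had 22, Pcdh17 had 21 and Pcdh9 had 18, against a median of 6 over 32851 windows of this length in the same table. As many sites as in Pcdh10 were present in 14.8% of all windows. Pcdh8 had 11, Pcdh7 had 7 and Pcdh20 had 3. After the sequences were seen, the windows were searched on both strands for CCAAT, the core of the CCAAT box, which was present in 6 of the 7 windows and in 33.8% of all. A longer form, CCAGCCAAT, which contains the shorter one, was found in 3 of the 7, those of Pcdh8, Pcdh17 and Pcdh18, and in 0.959% of all windows. In each of these it read ATTGGCTGG on the strand of the gene, between 24 and 68 bases before the start. These matches describe the sequence only.

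The region held the gene start in 7 of the 8 genes, all but Pcdh9. Among 20780 autosomal protein-coding genes, 29.0% had their start in a region and 42.6% had a region within the same limits. The regions covered the long exon that encodes the extracellular domain in 6 genes: they contained every coding base of Pcdh8 and Pcdh20, 81.9% of the coding bases of Pcdh10, 80.0% of those of Pcdh7, 74.6% of those of Pcdh18 and 73.7% of those of Pcdh17. The Pcdh1 region lay mostly upstream, between positions -26047 and 7902 bp relative to the start, and held only 0.500% of the coding bases. The Pcdh9 region contained no exon and lay in an intron 814529 bp downstream of the start, 49191 bp from the end of the gene.

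**Figure D1:**
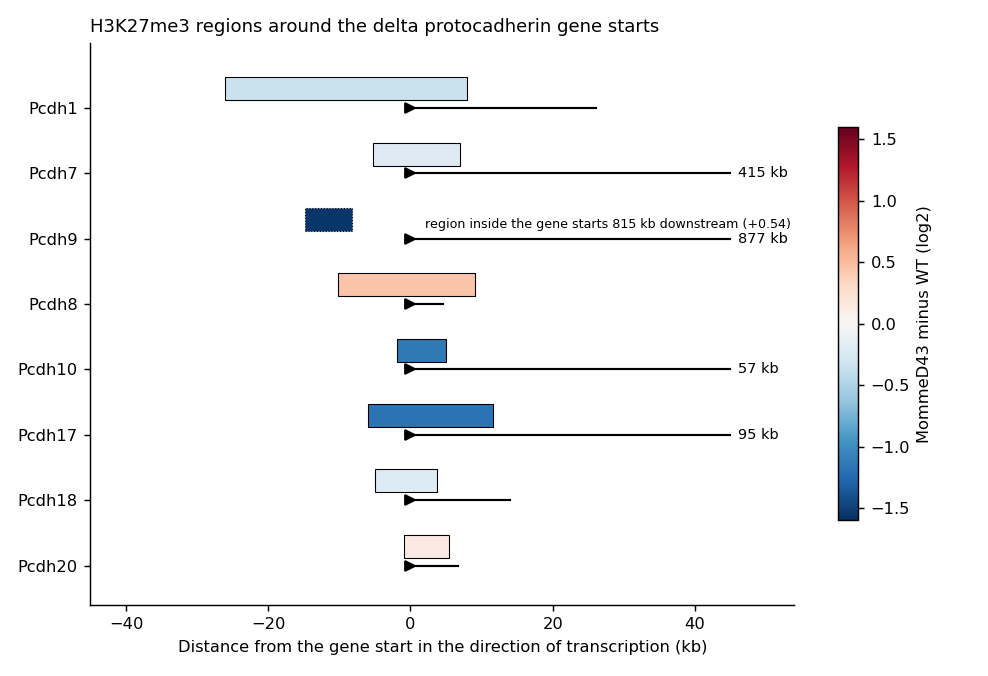
H3K27me3 regions (boxes, coloured by the MommeD43 minus WT difference on the log2 scale) around the 8 gene starts, against distance in kb in the direction of transcription. Black lines are gene bodies, with the length written where the line is cut short. The dotted outline marks the region upstream of Pcdh9, which lies beyond the 5 kb limit. The 7 boxes with solid outlines all span the gene start, those of Pcdh10 and Pcdh17 are the darkest blue of them, and the intronic Pcdh9 region is too far downstream to draw and is given as a note.

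Values are log2 normalized read counts per region, and each difference is MommeD43 minus WT. The counts are scaled to library size, with no spike-in described and no whole cell extract subtracted, so a negative number means a smaller share of the reads in MommeD43, and the absolute amount of the mark was not measured. The geometric mean number of reads per library behind a value was recovered from the values themselves, and it gives the smallest counting error that the difference can have. The intervals quoted are 95% counting intervals from it, which cover counting error only: they leave out variation between cell lines and take each read as its own molecule. Levels of different genes are compared as normalized counts per kb of region. Each region includes 2.5 kb of widening on either side of its peaks, which makes up more of a short region than of a long one. The densities and their ranks were not corrected for this.

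Of the delta-2 genes, Pcdh17, which regulates presynaptic assembly and axon extension in the forebrain, had the lowest difference of the 8. Its region, 14:84437601-84455200, went from 10.53 in WT to 9.35 in MommeD43, a difference of -1.19 with an interval of -1.31 to -1.06, or 2.27-fold lower. About 453 reads per library lay behind the WT value and 247 behind the MommeD43 value. In density this was 84.1 normalized counts per kb in WT, above 93.4% of autosomal regions, and 37.0 in MommeD43, above 49.9% of them.

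Pcdh10, which takes part in the outgrowth of striatal and thalamocortical axons, was close to it in fold but much weaker in level. The region 3:45376551-45383350 had 7.14 in WT and 5.99 in MommeD43, a difference of -1.15 with an interval of -1.57 to -0.73, or 2.22-fold lower. Only 43.1 reads per library lay behind the WT value and 24.1 behind the MommeD43 value. Its density in WT, 20.7 normalized counts per kb, was the lowest of the 8. Its counting interval there overlapped those of Pcdh9, Pcdh18 and Pcdh20. At 9.34 in MommeD43 the Pcdh10 region lay above only 0.965% of autosomal regions. The region also held the start of the noncoding transcript 2610316D01Rik, which is transcribed in the opposite direction.

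Pcdh8, the paraxial protocadherin of somite formation, which in neurons is induced by activity, ran the other way. Its region, 14:79762251-79781500, was the densest of the 8 in both genotypes, with 122 normalized counts per kb in WT and 166 in MommeD43. The log2 values were 11.19 and 11.65, a difference of 0.45 with an interval of 0.38 to 0.53, or 1.37-fold higher in MommeD43. The start of the antisense gene Gm9748 lay in the same region, and the mark cannot be assigned to either gene.

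Pcdh18, known to bind the adaptor Dab1 through its tail, had 7.70 in WT and 7.47 in MommeD43 at 3:49753551-49762300. The difference was -0.22, and its counting interval, -0.51 to 0.06, included 0. Pcdh20 stands outside both subfamilies, and its region, 14:88466001-88472350, was the shortest of the 8 at 6350 bp and the only one made of a single widened peak. By the widening of 2.5 kb in the file's description, that peak ran from 1546 to 2895 bp downstream of the start, inside the coding exon. Its values of 7.40 and 7.54 differed by 0.14, and the counting interval of -0.16 to 0.44 also included 0. For both genes the data neither show a difference nor limit it to less than about the size of these intervals.

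Of the delta-1 genes, Pcdh1, an adhesion protein of epithelia and brain, had 10.85 in WT and 10.49 in MommeD43 at 18:38204151-38238100, a difference of -0.36 with an interval of -0.46 to -0.26. The region was 33950 bp long and also held the start of the noncoding gene 2010320O07Rik. Pcdh7, which acts in retinal axon elongation, had 8.64 and 8.43 at 5:57712701-57724900, and its difference of -0.21 had an interval of -0.41 to -0.0025 that came close to 0. The starts of 4932441J04Rik and Gm42635 lay in the same region. At the intronic region of Pcdh9, 14:93062601-93076150, the values were 8.33 and 8.87, a difference of 0.54 with an interval of 0.33 to 0.75. Pcdh9 and Pcdh8 were thus the only genes of the 8 whose counting interval lay above 0.

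**Figure D2:**
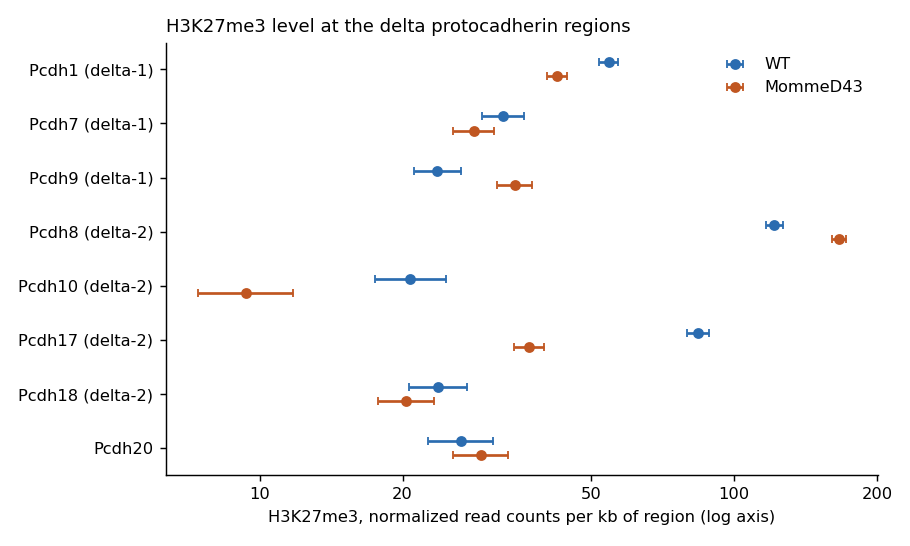
H3K27me3 level of the 8 regions in normalized read counts per kb on a log axis, WT in blue and MommeD43 in orange, with bars for the 95% counting interval and no replicate error. The MommeD43 point lies left of the WT point and apart from it for Pcdh17, from 84.1 to 37.0, for Pcdh10, from 20.7 to 9.34, and for Pcdh1, from 54.4 to 42.3, and right of it for Pcdh8 and Pcdh9.

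Ordered by density in WT, Pcdh8 was followed by Pcdh17, Pcdh1 at 54.4 normalized counts per kb, Pcdh7 at 32.6, Pcdh20 at 26.6, Pcdh18 at 23.7, Pcdh9 at 23.7 and Pcdh10 at 20.7. The counting intervals of the last 4 overlapped each other, and that of Pcdh7 overlapped that of Pcdh20, so their order is not set. In MommeD43 the order was Pcdh8, Pcdh1 at 42.3, Pcdh17 at 37.0, Pcdh9 at 34.4, Pcdh20 at 29.2, Pcdh7 at 28.2, Pcdh18 at 20.3 and Pcdh10 at 9.34. Pcdh17 and Pcdh9 overlapped in their intervals, as did Pcdh9 and Pcdh20, and Pcdh20 and Pcdh7. Pcdh17 thus came below Pcdh1 without overlap, and the MommeD43 interval of Pcdh10, 7.42 to 11.8, lay below that of every other gene of the 8. The median over the 8 regions was 29.6 in WT and 31.8 in MommeD43, against 36.0 and 37.0 over autosomal regions.

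Of the 8 regions, 2 were at least 2-fold lower in MommeD43, Pcdh10 and Pcdh17, against a background of 3.03% of all regions, 2.93% of autosomal regions and 1.45% of the 4421 autosomal regions that hold a protein-coding start. None was at least 2-fold higher, against 2.28% of autosomal regions. In all 5 were lower and 3 higher, where 42.3% of autosomal regions and 32% of those with a start were lower. The counting interval lay wholly below 0 for 4, against 25.1% of autosomal regions, and wholly above 0 for 2, against 37.9%. The median difference was -0.22, with a range of -1.19 to 0.54, and over autosomal regions it was 0.08. With so few regions and no replicates, these counts are a description and carry no test.

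The subfamilies overlapped. The 3 delta-1 regions ran from -0.36 to 0.54 with a median of -0.21, and the 4 delta-2 regions ran from -1.19 to 0.45 with a median of -0.69. Summing normalized counts over a subfamily, which gives the dense Pcdh8 region the most weight, brought the delta-2 difference to -0.026 and left delta-1 at -0.19. Across the genome the difference followed base composition, and it was therefore also taken relative to the median of autosomal regions of like GC content. With the GC trend removed the medians were -0.42 for delta-1 and -0.43 for delta-2. In the values as deposited, a minimum mean count of 50, which drops Pcdh10, gave -0.22 for delta-2 beside -0.21 for delta-1. The gap between the subfamily medians held in neither case.

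Pcdh10 departed from that trend more than the other 7. Its region had a GC content of 52.9%, in the top GC decile, where the median difference was 0.39. Among the 5854 autosomal regions at or above the median GC content of 46.3%, it was the only one at least 2-fold lower in MommeD43, and the next lowest stood at -0.95. With the GC trend removed its difference was -1.55, the 16th lowest of 11707 autosomal regions. Its counting interval as deposited, -1.57 to -0.73, includes values short of 2-fold and the -0.95 of the next region. Its rank is therefore not set. Pcdh17, by contrast, had a GC content of 40.9%, in the bottom decile, where 22.9% of regions were at least 2-fold lower and the median was -0.61. It lay close to the upper edge of that decile, at 41.1%, and in the next decile 3.07% were at least 2-fold lower and the median was -0.25. With the trend removed it stood at -0.78, below all but 1.96% of autosomal regions, and it no longer passed 2-fold.

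The intronic Pcdh9 region was an exception in the other direction. At 38.6% its GC content was the lowest of the 8, also in the bottom decile, where 86.3% of regions were lower in MommeD43. With the GC trend removed its difference was 1.23, above 99.0% of autosomal regions. Pcdh1 and Pcdh7 stood at -0.53 and -0.42 under this treatment, Pcdh8 at 0.28, Pcdh20 at 0.12 and Pcdh18 at -0.071. The count at least 2-fold lower was then 1 of 8, Pcdh10, against 0.683% of autosomal regions, and 1 of 8 was at least 2-fold higher, Pcdh9, against 1.85%. The part that base composition plays in these differences was not tested.

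**Figure D3:**
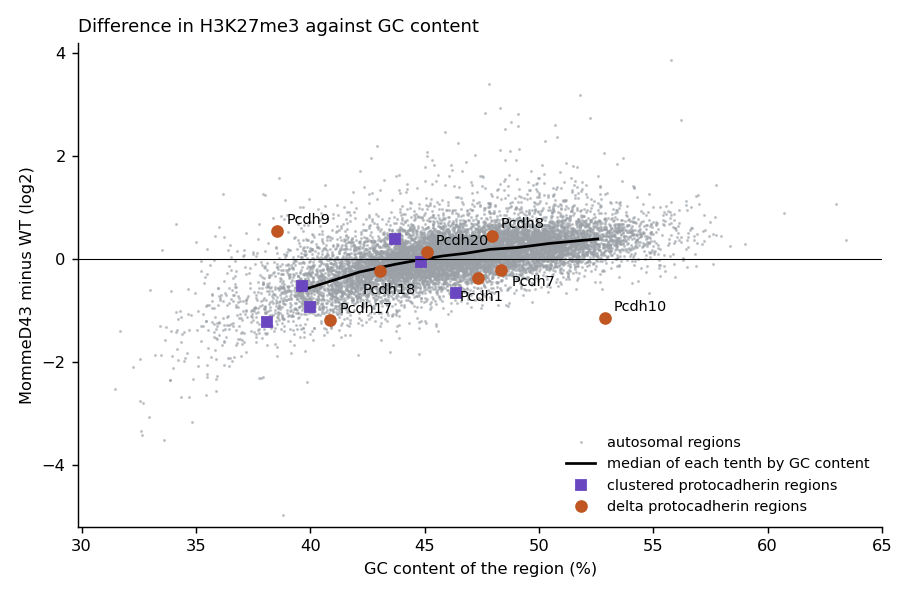
MommeD43 minus WT difference (log2) of every autosomal region against its GC content in percent, with the 8 delta protocadherin regions in orange, the 6 clustered protocadherin regions as purple squares and the median of each GC decile as a black line. Pcdh10, at 52.9% and -1.15, lies below the points around it, Pcdh9, at 38.6% and 0.54, lies above most points around it, and Pcdh17 lies near the lower edge.

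Several of the regions also stood apart in position and in CpG content. The observed over expected CpG ratio was 0.69 in the Pcdh10 region, a value reached by 0.0513% of autosomal regions, 0.64 in Pcdh7, 0.53 in Pcdh17 and 0.45 in Pcdh8, with an autosomal median of 0.23. In the top decile of this ratio the median difference was 0.14 and 2.48% of the 1171 regions were at least 2-fold lower. Pcdh7, Pcdh10 and Pcdh17 were isolated, with the nearest other region 3511150, 2462950 and 3111550 bp away. Only 96 autosomal regions had no other region within 1 Mb. Of these, 24 were at least 2-fold lower and 6 at least 2-fold higher, and the median was -0.32. The part of isolation was not tested.

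The region just outside the limit of 5 kb belonged to Pcdh9. It lay 8172 bp upstream of the start at 14:93898851-93905500, had a GC content of 35.9%, and went from 7.50 in WT to 5.95 in MommeD43. Its difference of -1.55, with a counting error of 0.21, became -0.52 with the GC trend removed. The regions flanking Pcdh9 on the side of its start and inside its body therefore differed in sign. The next nearest region outside the limit lay 34964 bp from Pcdh1 and differed by 0.08.

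The clustered protocadherin locus had a median difference of -0.59 over its 6 regions, beside -0.22 over the delta regions. Of the 6, 5 were lower and 1 higher, where 42.3% of autosomal regions were lower. By GC content 3 of the 6 lay in the lowest decile, where 86.3% were lower, and the other 3 in deciles 3, 4 and 6, where 61.4%, 52.5% and 36.0% were lower. Only 3 overlapped a clustered gene, and each of these held the start of one: Pcdhac1, Pcdhac2 and Pcdhb1. The Pcdhac1 region, 18:37084551-37095100, differed by -0.92 with an interval of -1.16 to -0.69, and the Pcdhac2 region, 18:37139301-37148800, by -0.66 with an interval of -0.91 to -0.41. The Pcdhb1 region, 18:37262751-37268500, differed by 0.38, with 29.1 reads per library in WT and an interval of -0.000697 to 0.77 that included 0. None of these 3 passed 2-fold. The other 3 overlapped no clustered gene. Of these, 18:37208001-37219750 had the lowest difference, -1.23, 18:37199751-37206100 differed by -0.52, and 18:37642401-37654600, which holds the start of Taf7, by -0.062. The 2 sets overlapped in range, -1.23 to 0.38 against -1.19 to 0.54, and 1 clustered region of 6, the one at -1.23, was at least 2-fold lower, against 2.93% of autosomal regions.

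In density the clustered regions had medians of 35.3 normalized counts per kb in WT and 20.99 in MommeD43, and in GC content a median of 41.8%, against 46.2% for the delta regions. With the GC trend removed the medians of the 2 sets were close, at -0.22 for the clustered and -0.24 for the delta regions, and 4 clustered regions were lower and 2 higher. No test of a difference between the sets was possible without replicates.

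**Figure D4:**
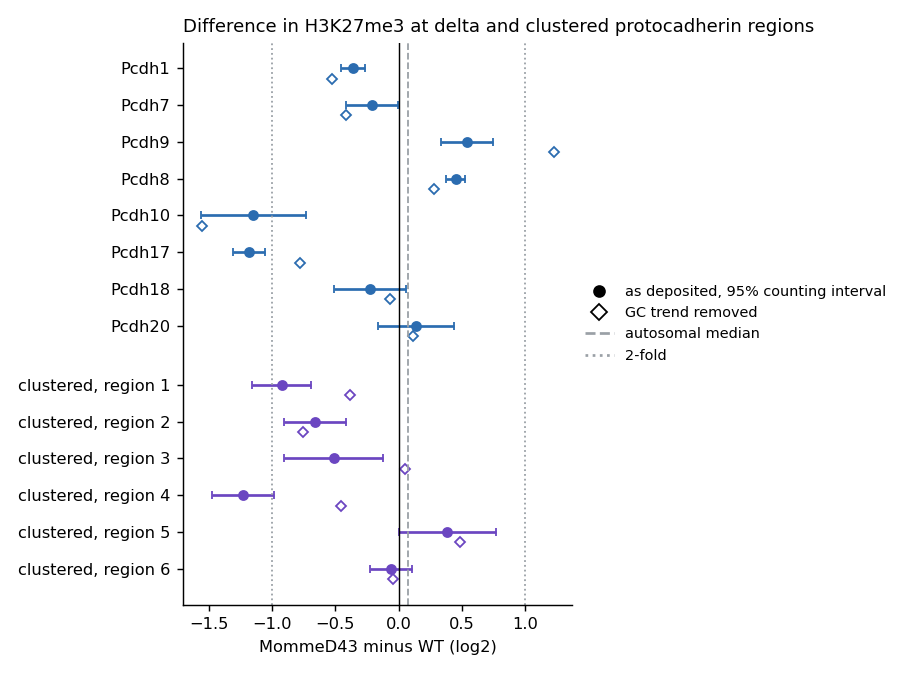
MommeD43 minus WT difference (log2) of the 8 delta protocadherin regions in blue and of the 6 clustered protocadherin regions, numbered along chromosome 18, in purple. Filled points are the deposited values with 95% counting intervals, open diamonds the values with the GC trend removed, the dashed line the autosomal median of 0.08 and dotted lines mark 2-fold. The sets overlap, and the diamonds of Pcdh10 and Pcdh9 are the only ones past a dotted line.

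Pcdh1 lies on the same chromosome, 344041 bp beyond the clustered locus. Of the regions within 1 Mb of it, 9 were outside that locus, and their differences ran from -0.060 to 0.23 with a median of 0.08. The Pcdh1 region, at -0.36, was lower than each of them. One of the 9 holds the start of Pcdh12, the vascular endothelial protocadherin, together with that of Rnf14, and differed by 0.015 with a counting error of 0.08.

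Elsewhere in the cadherin superfamily 18 of 34 autosomal genes on the lists used had their start in a region. Of these 18 start regions 5 were lower and 13 higher in MommeD43, with a median of 0.24, 0 at least 2-fold lower and 1 at least 2-fold higher. Over all autosomal regions with a protein-coding start, 32% were lower, 1.45% at least 2-fold lower and 2.4% at least 2-fold higher, and the median was 0.17. All 44 autosomal regions of these genes, whether or not at a start, had a median of 0.16, and with the GC trend removed 20 were lower and 24 higher, with a median of 0.04. The large cadherins Fat, Dchs and Celsr, which organise planar polarity, had 4 lower and 2 higher, from Fat3 at -0.89 to Fat4 at 0.65. Over all 16 regions of this list, 10 were lower and 6 higher with a median of -0.24, and with the GC trend removed 14 were lower with a median of -0.27, close to the -0.22 and -0.24 of the delta regions. The type I cadherins, the classical adhesion molecules of adherens junctions, had 3 higher, from Cdh15 at 0.30 to Cdh3 at 0.52, and the Cdh15 region was 273350 bp long and not particular to it. With the GC trend removed Cdh15 turned to -0.083, and the median over the 5 regions of this list went from 0.35 to 0.05. Of the type II cadherins, which mark neuron groups, 1 was lower, Cdh6 at -0.52, and 5 were higher, up to Cdh8 at 1.97. Pcdh15 and Cdh23, the tip link proteins of hair cells, differed by 0.16 and 0.63.

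The X-linked delta protocadherins were kept apart. Pcdh11x had no region. Pcdh19, a delta-2 gene mutated in a female-limited epilepsy, had 6 regions, all higher in MommeD43 and 3 at least 2-fold higher, against 75.7% and 29.8% of the 1878 X-linked regions. Their median was 1.04, and the one at its start went from 7.41 to 9.33, a difference of 1.93. With the autosomal GC trend removed all 6 were at least 2-fold higher, with a median of 1.70. So were 924 of the 1878 X-linked regions, whose median was then 0.98. X-linked regions as a whole had a median difference of 0.49, so these values stand on a background unlike that of the 8 autosomal genes. They are shares of reads and do not give the amount of the mark on the X. By immunofluorescence in female NSCs, the study reported modestly lower H3K27me3 in MommeD43, on the inactive X and over the nucleus. It described ChIP-seq as ill-suited for comparing such levels.

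**Figure D5:**
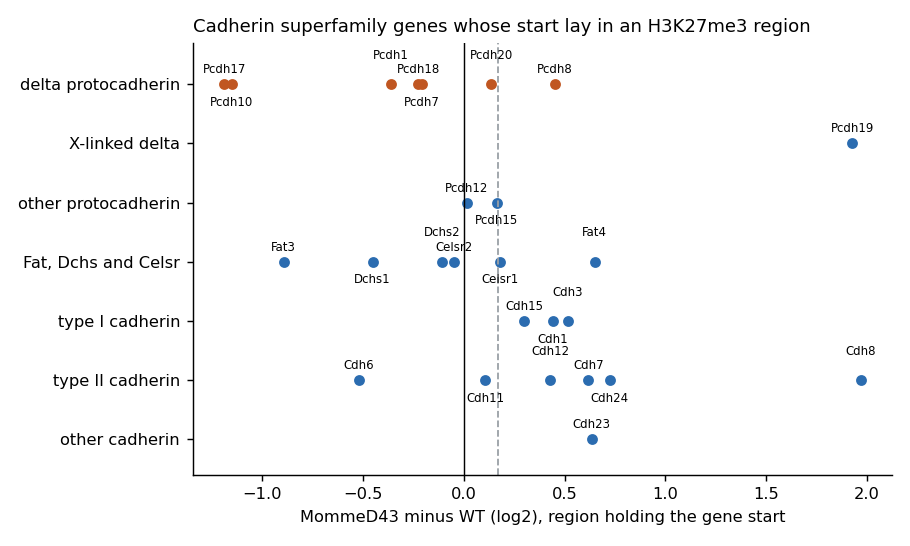
MommeD43 minus WT difference (log2) at the region that holds the gene start, for 7 delta protocadherin genes in orange and for the other cadherin superfamily lists in blue, with a dashed line at 0.17, the median of autosomal regions with a protein-coding start. Pcdh17 and Pcdh10 are the lowest points, at -1.19 and -1.15, Fat3 follows at -0.89, and Cdh8 and Pcdh19 are the highest.

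The cell type label could be checked only through the mark, since no expression values were used here. The starts of 6 of 11 neural stem cell markers lay in a region (Hes1, Hes5, Msi1, Nes, Pax6 and Sox1), as did 2 of 5 for neurons, 3 of 5 for the oligodendrocyte lineage, 2 of 4 for astrocytes and 6 of 7 for other germ layers, with Hnf4a the exception. The share over autosomal protein-coding genes was 29.0%, and with so few genes a list these counts do not settle the cell type. Sox2, Vim, Fabp7, Slc1a3 and Notch1 had none at their start. A region at a start does not say that the gene is silent, and the part of mixed cell states or of the active and silent allele in these values was not tested.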

How the data were processed

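H3K27me3 ChIP-seq of NSCs was analysed from the table deposited for the series. According to the submitters' processing notes and the study's methods, the authors trimmed reads with Trim Galore 0.4.4, aligned them with Bowtie2 2.3.4.1 to GRCm38.p6, called peaks on merged libraries against whole cell extract, and quantified reads in SeqMonk. Regions are peaks widened by 2.5 kb and joined when close (smallest gap 1000 bp). The values are log2 counts, normalized by the authors to total library size with the 3 libraries of a genotype merged, and they behave as a mean of the 3 log2 counts. They are not divided by length, and whole cell extract, for which no column was given, is not subtracted. Region names end at the first joined peak, and start and end columns were used.

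If each library held whole reads, the 3 counts behind a value multiply to a whole number once a constant for the genotype is removed. With that constant, 99.9% of 1139 WT and 99.6% of 684 MommeD43 products below 30000 came within 0.1 of a whole number. The constants correspond to 3.27 normalized counts per read for WT and 2.63 for MommeD43. Counting errors assume equal Poisson counts in the 3 libraries. The method was tested on simulated data.

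GC content came from the GRCm38.p6 genome, genes from GENCODE release 21 of the mouse, and promoters from RefSeq. Trends were running medians over 40 bins of autosomal regions. The members and gene lists were chosen with earlier results of these data known. Text names all 8 genes, the clustered regions and, of each cadherin list, the extremes at gene starts. Percentages of regions and distances to other regions were added after the values were seen. The planned count model was replaced by description because the columns are pooled. Python 3.11.15, numpy 2.4.6, pandas 2.3.3 and matplotlib 3.10.9 were used. Alternatives are given at the end.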

Additional observations from a re-analysis of the deposited data

How the results depend on the processing

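No paired analysis was possible because each genotype has 1 pooled column without replicate numbers, and leaving out replicates in turn could not be run for the same reason. A value counts as moved where it shifts by more than its 95% counting interval. The median of the delta regions, -0.22, stayed below 0 under the alternatives run and moved under 1 of them, to -0.46, when the genotypes were scaled to equal region totals, which lowers each difference by 0.24. Summed over the 8 regions the difference was closer to 0, at -0.081. Gene bodies alone take in the same 8 regions, so that setting could only return the same median. With 50 kb on each side there were 10 regions. The added ones, at -1.55 and 0.08, lie on either side of the median, which stayed at -0.22. The 7 start regions also gave -0.22. Equal region totals also took delta-1 from -0.21 to -0.45, delta-2 from -0.69 to -0.93, and reversed the other cadherin regions, from 0.16 to -0.080, and Pcdh20, from 0.14 to -0.10. Removing the GC trend took the clustered median from -0.59 to -0.22, delta-1 to -0.42 and delta-2 to -0.43. Removing density as well gave -0.20 for the clustered and -0.45 for the delta-2 regions. Delta-2 was -0.22 with a minimum mean count of 50, which drops Pcdh10, and -0.026 when its regions were summed. The count at least 2-fold lower, 2 as deposited, was 1 after either removal, an alternative chosen after seeing the data. Of 48 further values for the 8 regions taken one by one, 30 stayed within the interval, 17 moved and 1 reversed. Depth limits Pcdh10 most, with 24.1 reads per library in MommeD43.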
